A study of Rattus norvegicus with 8 samples.

Results

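The J-domain cochaperones are the proteins that hand unfolded clients to the Hsp70 chaperones, and their genes are named Dnaja, Dnajb and Dnajc. The members described here were all non-control probes whose gene name starts with one of these 3 stems followed by a number. They came to 56 probes of 45 genes among the 45598 probes and 36306 named genes of the array. Dnaja had 4 genes, Dnajb 13 and Dnajc 28. The members were chosen by name, but the family was proposed with results of this same comparison known, so the counts, calls and p-values below are a description and not a test that the family responded.

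Every member carries a J domain, a short helical module that makes Hsp70 hydrolyse ATP and clamp onto its client, after which a nucleotide exchange factor resets Hsp70. Type A members resemble bacterial DnaJ in full, type B members keep the glycine- and phenylalanine-rich stretch after the J domain, and type C members share only the J domain and so serve many sites, among them the endoplasmic reticulum (ER), mitochondria, ribosomes and clathrin coats. In macrophages, as in other cells, some members are known as targets of heat shock factor 1 (Dnajb1, Dnaja1) and others of the unfolded protein response of the ER (Dnajb9, Dnajb11, Dnajc3, Dnajc10).

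The cells were NR8383, a permanent line of alveolar macrophages that was started from the lavage of a normal rat's lung. They grow partly attached and partly floating. The study asked how 4 h with multi-walled carbon nanotubes changes gene expression. In the control group cells stayed for 4 h in medium free of serum with no nanotubes (0 µg/mL), and in the NM401 group they spent the same time in the same medium with 0.17 µg/mL of NM401, a reference multi-walled carbon nanotube with long, stiff fibres. Both groups therefore share the serum withdrawal, and the line has no epithelium or other lung cells around it. Each group had 4 arrays, 1 for each replicate number in the labels.

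Of 13 macrophage marker genes on the array, 12 were well above background on all 4 arrays of each group, Cd68, Csf1r and Spi1 among them, and the exception was Marco. Epithelial markers reached that level for 1 of 11 genes (Foxj1), with the surfactant genes Sftpb, Sftpc and Sftpd short of it. Lymphocyte markers did so for 3 of 9 genes and fibroblast and endothelial markers for 5 of 11. Neutrophil markers did so for 2 of 7 in control and 1 of 7 in NM401. The summed level of the macrophage list, in multiples of an array's 75th percentile, ran from 305 to 331.6 in control and from 279.7 to 292.3 in NM401, and the other lists summed to 3.962 or less on any array. Some of these markers differed between the groups in the fit described below: 2 of 12 tested macrophage markers rose and 3 fell (Cd68 fell by 0.36), and 2 of 3 lymphocyte markers fell (Cd4 by 1.06 and Cd3d by 0.79). Dcn rose by 1.49 while Col1a2 fell by 1.20 and Cdh5 fell by 1.15. All 3 tested neutrophil markers fell, with Mpo well above background on 4 control and 0 NM401 arrays and at least 4.76-fold lower, the NM401 arrays being set at the weakest signal well above background or at the probe's own where that was higher. Their part in the members' values was not tested.

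Signal differed between the groups before any scaling. An array's 75th percentile of processed signal averaged 2692 ± 172.3 (SD, n = 4) with NM401 against 1236 ± 224.5 (SD, n = 4) without it, which is 1.14 apart on the log2 scale, and the percentage of spots well above background ran from 51.75 to 58.01. All values below are log2 signal minus the array's own 75th percentile, so they state each gene's place relative to the rest of its array. Before this scaling, all 38 members tested below had a higher mean processed signal in NM401, including those that fell after it. The offset of 1.14 applies to every gene, so any gene that fell by less than this after scaling does the same. After scaling, 6.09% of all genes tested were called at least 2-fold lower. The share of all genes with a higher unscaled signal was not counted. Spike-in probes, to which the labelling kit's control RNA binds, lay 2.02 lower in NM401 after the same scaling. Whether RNA per cell, labelling or the amount of spike-in differed was not tested. Slide 1 held all 4 controls plus replicate 1 of NM401, slide 2 held the remaining 3 NM401 arrays, and scans ran slide by slide. Values with the slide as a block are therefore given beside the members they change; they equal the difference within slide 1, where 1 NM401 array meets 4 controls. Controls always lay in row 1 of a slide and NM401 in row 2, and these positions cannot be told apart from the groups.

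Sequences upstream of 4 members are shown because they hold the letters of a stress-response element. A promoter of 250 bases before the start was at hand for 35 of the 45 members (RefSeq, build GRCr8). Both strands were searched for GAANNTTC, a pair of facing units of the heat shock element, in which N is any base. It was present in 5 members (Dnaja1, Dnajb1, Dnajb6, Dnajc18 and Dnajc5g), against 7.23% of all 33469 promoters. The ER stress response element, CCAAT and CCACG with 9 bases of any kind between them, was in 1 member, Dnajc3, against 0.0657% of all promoters, and it overlaps the CCAAT box. Each line gives 120 bases, read 5′ to 3′ on the gene's own strand, with the match in capitals.
Dnaja1 (chr5:60638203-60638322, plus strand): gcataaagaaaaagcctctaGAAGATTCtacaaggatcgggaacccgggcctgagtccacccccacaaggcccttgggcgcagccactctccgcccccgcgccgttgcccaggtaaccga
Dnajb1 (chr19:41431142-41431261, minus strand): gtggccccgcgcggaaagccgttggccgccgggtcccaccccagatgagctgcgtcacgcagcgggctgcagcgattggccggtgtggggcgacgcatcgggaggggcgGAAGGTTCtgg
Dnajb6 (chr4:6232067-6232186, minus strand): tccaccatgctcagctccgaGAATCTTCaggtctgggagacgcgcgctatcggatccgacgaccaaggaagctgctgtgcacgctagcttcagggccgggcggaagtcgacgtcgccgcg
Dnajc3 (chr15:102432514-102432633, plus strand): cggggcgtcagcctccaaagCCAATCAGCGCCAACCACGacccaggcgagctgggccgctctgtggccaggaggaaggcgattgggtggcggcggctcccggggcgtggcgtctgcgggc

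A match is only a run of letters, and none of these windows was probed for bound factors here. The longer run of 3 units, in which NNGAA follows GAANNTTC directly, was in 0 of the 35 members and in 0.663% of all promoters. The reverse arrangement TTCNNGAA was in 1 member, Dnajc27 (7.48% of all promoters), and the E-box CACGTG in 3 (5.59%). The antioxidant core TGACNNNGC was in 5 members, Dnajb1, Dnajb2, Dnajb8, Dnajc10 and Dnajc27, against 10.1% of all promoters. The full cyclic AMP element TGACGTCA was in 2 (1.59%), and CCAAT was in 13 (34%). Among the 4 members printed, Dnaja1, Dnajb6 and Dnajc3 rose in the test below, and Dnajb1 did not pass it. Of the members with GAANNTTC that are not printed, Dnajc18 did not pass and Dnajc5g was not tested. Among the 14 members with a promoter that were called higher, 2 held GAANNTTC and 1 held the ER stress response element.

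To be tested, a gene needed a probe that cleared background well on 4 or more of the 8 arrays, and 38 of the 45 members had such a probe. The probe of highest mean signal stood for the gene, and all 38 of these probes were well above background on all 8 arrays. Of the 7 members without one, Dnajb3, Dnajb7, Dnajb8, Dnajc5b, Dnajc5g and Dnajc27 were well above background on no array, and Dnajc6, the auxilin of clathrin uncoating, on 1 NM401 array. At a Benjamini-Hochberg adjusted p of 0.05 over all probes (limma), 17 of the 38 tested members rose and 4 fell. Over all 17444 genes tested, 57.3% passed in either direction, 21.9% higher and 35.4% lower. Control and NM401 arrays were fully separate for 20 members, as they were for 53.2% of all genes. The members' median log2 fold change, NM401 minus control, was 0.15 and that of all genes −0.10. Changes of at least 1.5-fold were called for 5 members, against 22.3% of all genes, and of at least 2-fold for 1, and the members ranged from −0.53 to 1.05.

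The 3 stems differed in their counts. For Dnaja, 3 of 4 genes rose and 0 fell, with a median of 0.58. In Dnajb, 3 of 10 rose and 2 fell, with a median of 0.00, and in Dnajc 11 of 24 rose and 2 fell, with a median of 0.18. Over all genes in the same fit, 21.9% rose and 35.4% fell, with a median of −0.10. These shares also stand beside the counts of the smaller groups of members below. The stems were not tested against each other. Other scalings moved this balance: dividing by the array median in place of the 75th percentile gave 23 members higher and 1 lower, where 35% of all genes were higher and 19.3% lower and their median was 0.11. Normexp background correction gave 16 members higher and 10 lower, where 15.7% of all genes were higher and 53.9% lower and their median was −0.24. The median-pixel values of the deposited series table gave 16 members higher and 9 lower, against 16.1% and 48.4% of all genes.

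**Figure D1:**
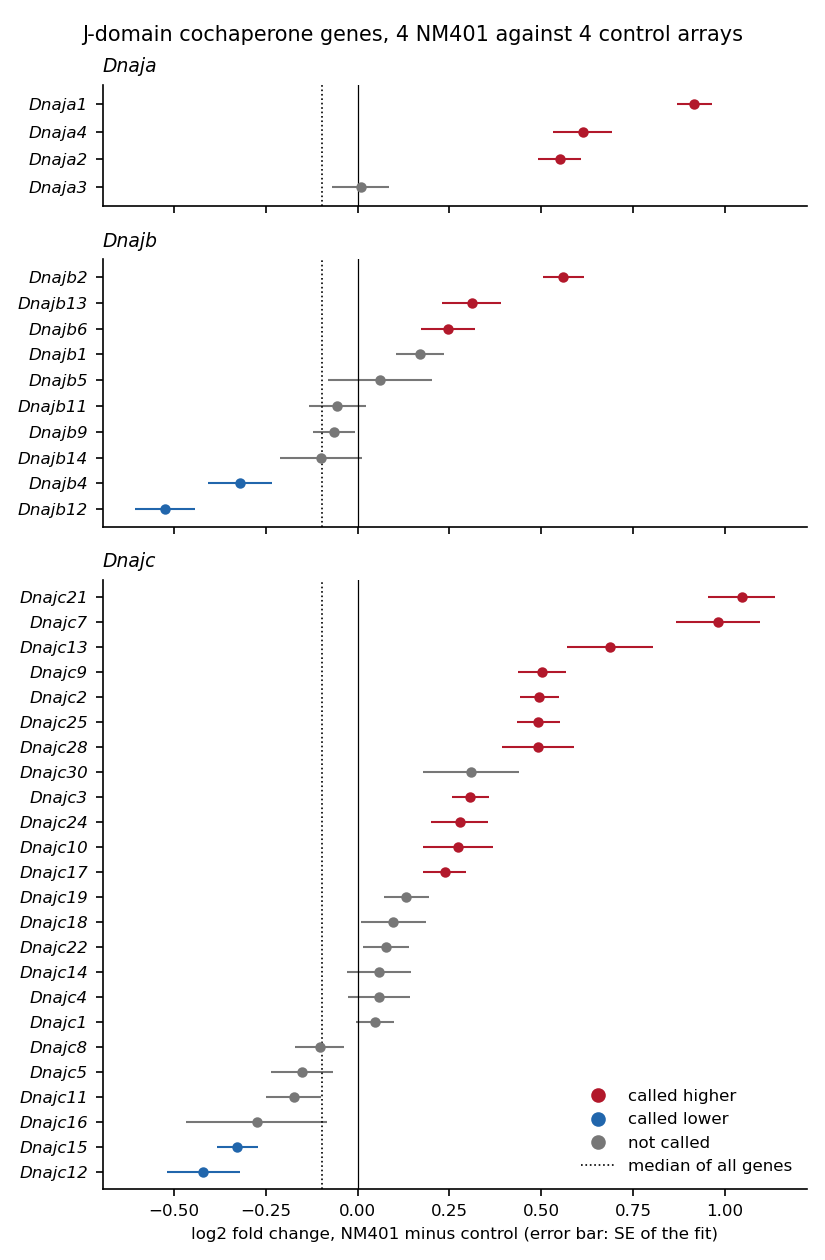
Log2 fold change, NM401 minus control, of the 38 tested members on the horizontal axis, in panels for Dnaja, Dnajb and Dnajc. Points are estimates from 4 arrays a group, bars are the SE of the fit, and the dotted line is the median of all genes (−0.10). Red members were called higher, blue ones lower; Dnajc21 at 1.05 and Dnajb12 at −0.53 are the ends of the range.

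Among the type A genes, the cytosolic members Dnaja1, Dnaja2 and Dnaja4 rose and the mitochondrial Dnaja3 did not pass the test. Dnaja1, a general cytosolic partner of Hsc70 in folding and in import into mitochondria, read −1.07, −1.06, −1.12 and −1.01 in control and −0.15, −0.15, −0.15 and −0.14 in NM401. The groups were far apart against a spread of 0.0481 (SD) in control and 0.0046 in NM401. The log2 fold change was 0.92 ± 0.05 (SE), a ratio of 1.89, with a limma adjusted p of 2.7e-05. Its estimate was the same 0.92 with the slide as a block.

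Dnaja2, the other main cytosolic type A partner of Hsc70, read 0.19, 0.30, 0.15 and 0.13 in control and 0.83, 0.73, 0.68 and 0.72 in NM401. No NM401 array came near a control value, and the log2 fold change was 0.55 ± 0.06 (limma adjusted p = 0.000217). Dnaja4, whose transcript is known to follow sterol-regulated genes, read −1.81, −1.67, −1.56 and −1.82 in control and −1.14, −1.11, −0.96 and −1.19 in NM401. Again the groups did not overlap, at 0.61 ± 0.08 (limma adjusted p = 0.000477). Dnaja3, a mitochondrial cochaperone, gave 0.01 ± 0.08 on the probe that stood for it and 0.22 ± 0.11 on its other probe, and neither passed the test.

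Among the cytosolic and nuclear type B genes, Dnajb2, Dnajb6 and Dnajb13 rose, Dnajb4 fell, and Dnajb1 and Dnajb5 did not pass, 6 being tested of 9 on the array with a median of 0.21. Dnajb1, the classic heat-inducible Hsp40, read 0.08, 0.23, 0.25 and 0.11 in control and 0.23, 0.38, 0.42 and 0.32 in NM401. The lowest NM401 array lay among the controls. Its log2 fold change was 0.17 ± 0.07, with a limma adjusted p of 0.0547, and with the slide as a block it was 0.06 with an adjusted p of 0.647. It passed under median scaling, where it was 0.37, with a filter that asks for all 8 arrays, and when NM401 replicate 1 or control replicate 3 was left out.

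Dnajb2, a cochaperone with ubiquitin-binding motifs that steers clients to the proteasome, read −2.19, −2.25, −2.09 and −2.15 in control and −1.69, −1.58, −1.56 and −1.59 in NM401. The groups were separate, at 0.56 ± 0.06 (limma adjusted p = 0.000158). Dnajb13, best known from the axonemes of sperm and cilia, read −2.58, −2.39, −2.45 and −2.43 in control and −1.97, −2.30, −2.13 and −2.20 in NM401. The gap between its groups was narrow, and the log2 fold change was 0.31 ± 0.08 (limma adjusted p = 0.012); its other probe rose by 0.47. With the slide as a block Dnajb13 was 0.49 (adjusted p = 0.0137). Dnajb4, an Hsp40 close to Dnajb1 in sequence, read −1.95, −1.95, −2.15 and −2.23 in control and −2.24, −2.46, −2.45 and −2.40 in NM401. Its lowest control array and its highest NM401 array nearly met. Its log2 fold change was −0.32 ± 0.09 (limma adjusted p = 0.0143) and −0.43 on its other probe, but −0.17 with the slide as a block (adjusted p = 0.329).

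Dnajb6, known for holding back the aggregation of polyglutamine proteins, has a pair of probes that share 59 of 60 bases and so serve as a check of the array itself. The first 30 bases of each are shown, with the shared letters in capitals (rn4, minus strand, chr4:732492-732551 and chr4:732491-732550).
Dnajb6 probe a: tCAAGGAGGAATGTATTTTAGTGCTACTGA
Dnajb6 probe b: CAAGGAGGAATGTATTTTAGTGCTACTGAc
Probe a read −0.38, −0.44, −0.34 and −0.33 in control and 0.15, 0.13, 0.01 and 0.03 in NM401, and rose by 0.45 ± 0.06 (limma adjusted p = 0.000362). Probe b, which stood for the gene, read −0.21, −0.18, −0.20 and −0.35 in control and 0.17, 0.02, −0.10 and −0.04 in NM401, and rose by 0.25 ± 0.07 (limma adjusted p = 0.0206). Both probes had separate groups and the same direction, although their estimates differed for a shift of 1 base. With the slide as a block, probe b gave 0.41 (adjusted p = 0.0177). The other Dnajb6 probe, well above background on 1 control and 4 NM401 arrays, gave 0.18 and did not pass.

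Of the 4 type B genes of the ER, all tested, 0 rose, 1 fell and 3 did not pass, with a median of −0.08. Dnajb12, an ER membrane cochaperone in the disposal of misfolded membrane proteins, read 0.17, 0.22, 0.26 and 0.18 in control and −0.54, −0.18, −0.33 and −0.23 in NM401. Every NM401 array was below every control, and replicate 1 was the lowest. The only Dnajb12 probe lies in rn4 on sequence not assigned to a chromosome. The log2 fold change was −0.53 ± 0.08 (limma adjusted p = 0.00109), and −0.75 with the slide as a block. Its close relative Dnajb14 gave −0.10 ± 0.11 and did not pass.

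The members of this group known as targets of the unfolded protein response gave values near 0. Dnajb9, which binds the ER chaperone BiP and holds the stress sensor IRE1 inactive, read −2.57, −2.52, −2.46 and −2.46 in control and −2.49, −2.56, −2.66 and −2.55 in NM401. Dnajb11, a soluble BiP cochaperone that can be secreted, read 1.18, 1.36, 1.14 and 1.15 in control and 1.31, 1.12, 1.12 and 1.06 in NM401. The groups overlapped for both genes, at −0.07 ± 0.06 and −0.06 ± 0.08 (limma adjusted p = 0.352 and 0.559). Dnajb9 passed as lower, at −0.22, after normexp background correction.

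In the secretory-pathway group of type C, 3 of 7 tested genes rose and 0 fell, with a median of 0.10. Dnajc3, the ER cochaperone also known as an inhibitor of the kinase PERK, read 0.26, 0.37, 0.40 and 0.31 in control and 0.65, 0.68, 0.61 and 0.63 in NM401. Its groups were separate, and the log2 fold change of 0.31 ± 0.05 (limma adjusted p = 0.0015) was the same with the slide as a block. Dnajc10, a disulphide reductase of ER-associated degradation, read 0.90, 1.02, 0.62 and 0.81 in control and 1.20, 1.11, 0.97 and 1.17 in NM401. Control replicate 2 lay above NM401 replicate 3, and the log2 fold change was 0.27 ± 0.09 (limma adjusted p = 0.0377). The Dnajc10 call was lost when any of NM401 replicates 1, 2 and 4 or control replicates 1, 3 and 4 was left out (adjusted p = 0.0542 to 0.09), and with the slide as a block (0.112). Dnajc25 rose by 0.49 ± 0.06 (limma adjusted p = 0.000322). Dnajc1, a ribosome-binding BiP partner, gave 0.05, Dnajc22 0.08, Dnajc18 0.10 and Dnajc16 −0.28, none of which passed.

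**Figure D2:**
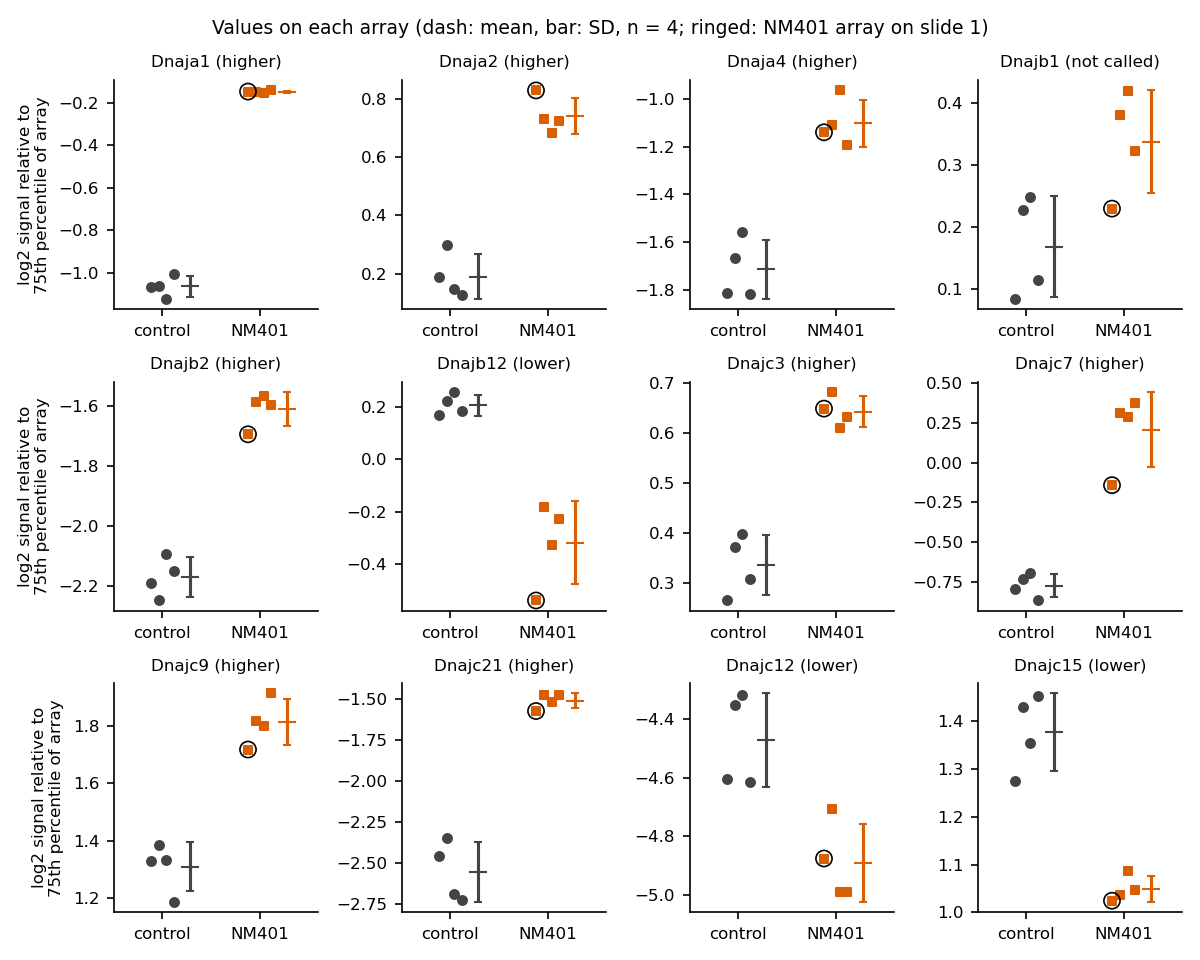
Array-scaled log2 signal (vertical axis, a separate range in each panel) on each of the 4 control and 4 NM401 arrays for 12 members; dashes are group means and bars the SD. The NM401 array on slide 1 is ringed: it lies with the other NM401 arrays for Dnaja1 and Dnajc15, is the lowest of the 4 for Dnajc7 and Dnajb12, and falls among the controls for Dnajb1.

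The type C group of ribosome, translation and nucleus had the most members called higher, 5 of 6 tested, with a median of 0.39. Of all genes, 21.9% were called higher and 35.4% lower, with a median of −0.10. Dnajc21, a factor in the maturation of the large ribosomal subunit, read −2.46, −2.35, −2.69 and −2.73 in control and −1.57, −1.48, −1.52 and −1.48 in NM401. Its groups lay far apart, and it was the member called at 2-fold or more, with a log2 fold change of 1.05 ± 0.09 and a ratio of 2.06 (limma adjusted p = 9.7e-05). Over all genes, 1.89% were called at least 2-fold higher and 6.09% at least 2-fold lower, and no member was among the latter.

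Dnajc9, a cochaperone that also carries histones H3 and H4, read 1.33, 1.39, 1.33 and 1.19 in control and 1.72, 1.82, 1.80 and 1.91 in NM401. These groups did not overlap, at 0.50 ± 0.07 (limma adjusted p = 0.000472). Dnajc2, the ribosome-bound partner of Hsp70 that meets nascent chains, rose by 0.49 ± 0.05 (limma adjusted p = 0.000195), a value averaged over 10 spots of its probe on each array. Dnajc17, a nuclear splicing factor, rose by 0.24 and Dnajc24, which takes part in making diphthamide on elongation factor 2, by 0.28; both lost the call with the slide as a block (adjusted p = 0.205 and 0.0716). Dnajc17 was 0.12 and did not pass after normexp background correction (adjusted p = 0.0837). Dnajc8, a spliceosome component, gave −0.10 ± 0.07 and did not pass.

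Among the mitochondrial type C genes, 1 of 6 rose and 1 fell, with a median of 0.09. Dnajc15, an inner-membrane protein that restrains respiratory complex I, read 1.27, 1.43, 1.35 and 1.45 in control and 1.02, 1.04, 1.09 and 1.05 in NM401. All NM401 arrays were below all controls, at −0.33 ± 0.06 (limma adjusted p = 0.00163). Dnajc28 rose by 0.49 ± 0.10 (limma adjusted p = 0.00347), but was −0.11 after normexp background correction. Dnajc19, the paralogue of Dnajc15 in the import motor, gave 0.13, the cristae-linked Dnajc11 −0.17 and the complex I assembly factor Dnajc30 0.31, none of which passed. Dnajc19 did pass as higher after normexp, quantile and median scaling and in the deposited series values (limma adjusted p = 0.0142 to 0.0218).

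For Dnajc4 and Dnajc14 the call depended on the probe. Their probes share no overlap in sequence, and the first 30 bases of each are shown for that reason.
Dnajc4 probe a (rn4 chr1:209663135-209663194, minus strand): agccgttttgtggaactgagtgaggcgtat
Dnajc4 probe b (rn4 chr1:209663751-209663810, minus strand): actaattactatgaactgttgggagtgcat
Dnajc14 probe a (rn4 chr7:2117130-2117189, plus strand): aaattaatttttacaaagcagatttatgcc
Dnajc14 probe b (rn4 chr7:2116520-2116579, plus strand): tacccaagggagaagccaaacctaaacggc
Probe a stood for the gene in each case. Dnajc4 probe a read −2.36, −2.05, −2.11 and −2.08 in control and −2.23, −2.04, −2.10 and −2.01 in NM401, with overlapping groups (0.06 ± 0.08). Dnajc4 probe b read −2.17, −2.30, −2.46 and −1.71 in control and −2.78, −2.89, −2.90 and −2.94 in NM401, with separate groups, and fell by 0.72 (SE 0.15, limma adjusted p = 0.00391). Dnajc14, a protein of the ER membrane linked to receptor export, gave 0.06 ± 0.09 on probe a and rose by 0.45 ± 0.07 on probe b (limma adjusted p = 0.00133). Which exon or untranslated stretch each probe covers was not determined, so whether transcript forms differ was not tested. Of 8 members with more than 1 tested probe, 0 had probes called in opposite directions.

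In the clathrin, endosome and vesicle group 2 of 6 members could be tested. Dnajc13, which acts with Hsc70 on endosomes in the retrieval of cargo, read −3.09, −2.61, −2.80 and −2.75 in control and −2.35, −1.99, −2.10 and −2.06 in NM401. Its groups were separate, with a log2 fold change of 0.69 ± 0.12 (limma adjusted p = 0.00169), and with the slide as a block it was 0.46 and lost the call (adjusted p = 0.0696). Dnajc5, the cysteine string protein of secretory vesicles, gave −0.15 ± 0.08 and did not pass.

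Of the 3 members linked to Hsp90 or with other roles, Dnajc7 rose and Dnajc12 fell. Dnajc7, whose tetratricopeptide repeats bind both Hsp70 and Hsp90, read −0.80, −0.74, −0.70 and −0.87 in control and −0.14, 0.31, 0.28 and 0.38 in NM401. The NM401 array on slide 1 was the lowest of its group and still above every control. Its log2 fold change was 0.98 ± 0.11 with a ratio of 1.98 (limma adjusted p = 0.000292), and 0.63 with the slide as a block (adjusted p = 0.00505). Dnajc12, a cochaperone of the aromatic amino acid hydroxylases, read −4.60, −4.35, −4.32 and −4.61 in control and −4.88, −4.71, −4.99 and −4.99 in NM401. The groups did not overlap, at −0.42 ± 0.10 (limma adjusted p = 0.0077), but the call was lost with the slide as a block (adjusted p = 0.103) and after quantile normalisation, where it was −0.27 (adjusted p = 0.0979).

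Across the 38 tested members, spread within a group was alike: the median SD was 0.09 in control and 0.09 in NM401, and 23 members had the smaller SD in NM401. Of the 21 called members, 6 kept the call and its direction in all 18 alternative settings run. These were Dnaja1 (0.81 to 1.12), Dnaja2 (0.50 to 0.75), Dnajc2 (0.47 to 0.70), Dnajc7 (0.63 to 1.19), Dnajc21 (0.79 to 1.25) and, falling, Dnajb12 (−0.75 to −0.32). With the slide as a block, 13 members were called higher and 2 lower, against 12.7% and 20.2% of all genes. Within slide 1 alone, 6 were called higher and 1 lower, against 4.33% and 7.8% of all genes. Under median scaling, Dnajb4 (−0.12), Dnajc12 (−0.22) and Dnajc15 (−0.12) did not pass, and with no filter on dim probes Dnajb6, Dnajc10, Dnajc17 and Dnajc24 did not. Of the members not called, 12 passed in some alternative. Among them, Dnajc11 passed as lower without control replicate 1 (adjusted p = 0.0412) and Dnajc16 without control replicate 2 (adjusted p = 0.0443). Both also passed as lower after normexp (limma adjusted p = 0.00396 and 0.0085) and in the deposited series values (0.0238 and 0.0373).

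**Figure D3:**
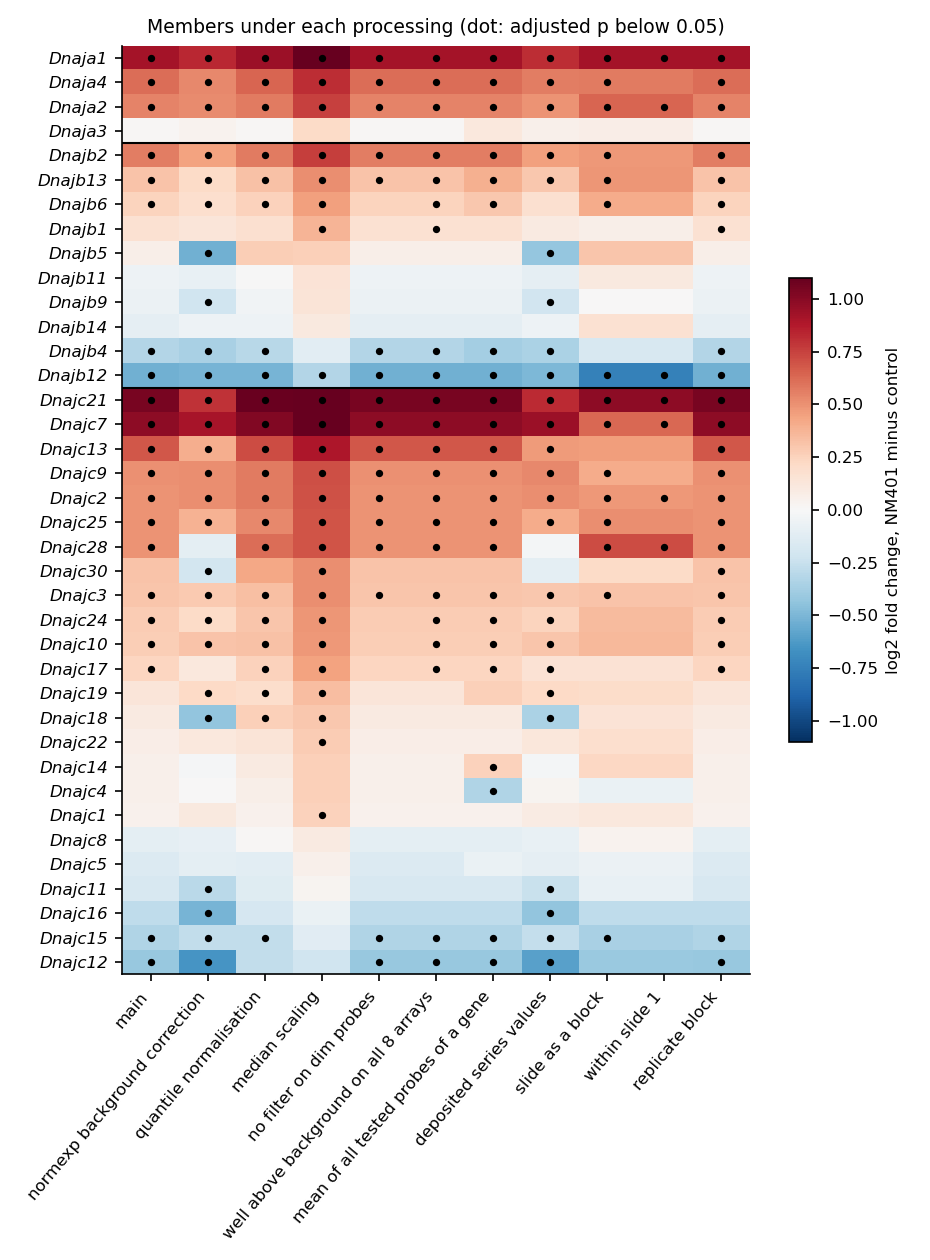
Log2 fold change, NM401 minus control, of each tested member (rows, grouped by Dnaja, Dnajb and Dnajc) under the reported processing and 10 alternatives (columns); red is higher in NM401, blue lower, and a dot marks an adjusted p below 0.05. Dnaja1, Dnaja2, Dnajc2, Dnajc7, Dnajc21 and Dnajb12 carry a dot in every column, and Dnajc28 turns from red to blue after normexp background correction and is −0.03 in the deposited series values.

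Lists of partner genes held Hsp70 genes together with other chaperone genes, their helpers and regulators, and further J-domain genes. Of the 45 tested genes in them, 17 rose and 14 fell, against 21.9% higher and 35.4% lower over all genes. The same shares stand beside the counts of each list below. Among the Hsp70 genes, 2 of 6 tested rose and 2 fell, with a median of −0.01. Hspa8, the constitutive cytosolic Hsc70, read 6.63, 6.64, 6.62 and 6.73 in control and 6.17, 6.27, 6.18 and 6.33 in NM401. Its groups were separate at −0.42 ± 0.06 (limma adjusted p = 0.000578), but after quantile normalisation the difference was −0.04 and did not pass. With the mean of its tested probes Hspa8 was −0.22 and passed (limma adjusted p = 0.0135). Near-identical copies of Hspa8 exist in the genome, so its probe may read more than 1 locus.

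Hspa2, a testis-enriched Hsp70, fell by 0.92 (SE 0.14), while Hspa13, an Hsp70 of microsomes, rose by 0.27 and Hspa9, the mitochondrial Hsp70, by 0.21. With the slide as a block Hspa13 did not pass (adjusted p = 0.136). Hspa5, the ER chaperone BiP, gave −0.08 ± 0.07 and Hspa14, a ribosome-bound Hsp70, 0.05 ± 0.09; neither passed. The inducible Hspa1a was well above background on 2 NM401 arrays and 0 control arrays on 1 of its probes and on none on the other, and it was not tested; Hspa1b, Hspa1l, Hspa12a and Hspa12b were not tested either.

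Of 14 nucleotide exchange factors, which release ADP from Hsp70, 7 rose and 4 fell, with a median of 0.16. Grpel2, the mitochondrial exchange factor, rose by 0.61 ± 0.05 and Hspa4l, an Hsp110 protein, by 0.35 ± 0.05, a call that was lost after normexp background correction (adjusted p = 0.101). Sil1, the exchange factor of BiP, fell by 0.63 and Bag6, which guards membrane proteins on their way to the ER, fell by 0.61 (limma adjusted p = 0.000105 and 0.000466). Of 13 genes of Hsp90 and its cochaperones, 5 rose and 3 fell, with a median of −0.01. The cyclophilin Ppid rose by 0.76 ± 0.06, St13, which steadies the client-bound state of Hsp70, by 0.54 ± 0.06, and the inducible Hsp90aa1 by 0.43 ± 0.05. With the mean of a gene's tested probes, Hsp90aa1 rose by 0.21 and Ppid by 0.85. The mitochondrial Hsp90, Trap1, fell by 0.43 (limma adjusted p = 0.000518), but did not pass under median scaling (−0.23).

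Of 7 tested heat shock factors and other heat shock proteins, 1 rose and 2 fell, with a median of 0.04. Hsf1, the main activator of the heat shock response, rose by 0.21 ± 0.07 (limma adjusted p = 0.037), but with the slide as a block it was 0.06 and did not pass. The Hsf1 call was also lost when any of NM401 replicates 2, 3 and 4 or control replicates 1, 2 and 3 was left out (adjusted p = 0.0719 to 0.0995). With the mean of its tested probes Hsf1 was 0.13 and did not pass (limma adjusted p = 0.09). Nor did it pass with the replicate number as a block or with no filter on dim probes (limma adjusted p = 0.053 and 0.088). Hsf2 gave 0.16 ± 0.07 and did not pass. The small heat shock protein Hspb1 was well above background on 4 control and 3 NM401 arrays and fell by 2.03 (SE 0.25), and Hspe1, the mitochondrial partner of Hsp60, fell by 0.66 (SE 0.06). Hspb8 was well above background on no array and was not tested, and Hspb11 was not analysed here.

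All 5 tested genes of a last list, J-domain genes of other names and direct helpers of mitochondrial Hsp70, passed: 2 rose and 3 fell, with a median of −0.20. Of all genes, 57.3% passed in either direction. Pam16, the J-like partner of the import motor, rose by 0.38 and Dnlz, an escort of mitochondrial Hsp70 that has no J domain, by 0.84. Hscb, the J protein of iron-sulphur cluster assembly, fell by 0.44, the auxilin Gak fell by 0.32, and Sec63, the J protein of the ER translocon, fell by 0.20. Sec63 did not pass with the slide as a block (adjusted p = 0.152) or without NM401 replicate 2 (adjusted p = 0.0606), and under median scaling Gak (−0.12) did not pass.

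**Figure D4:**
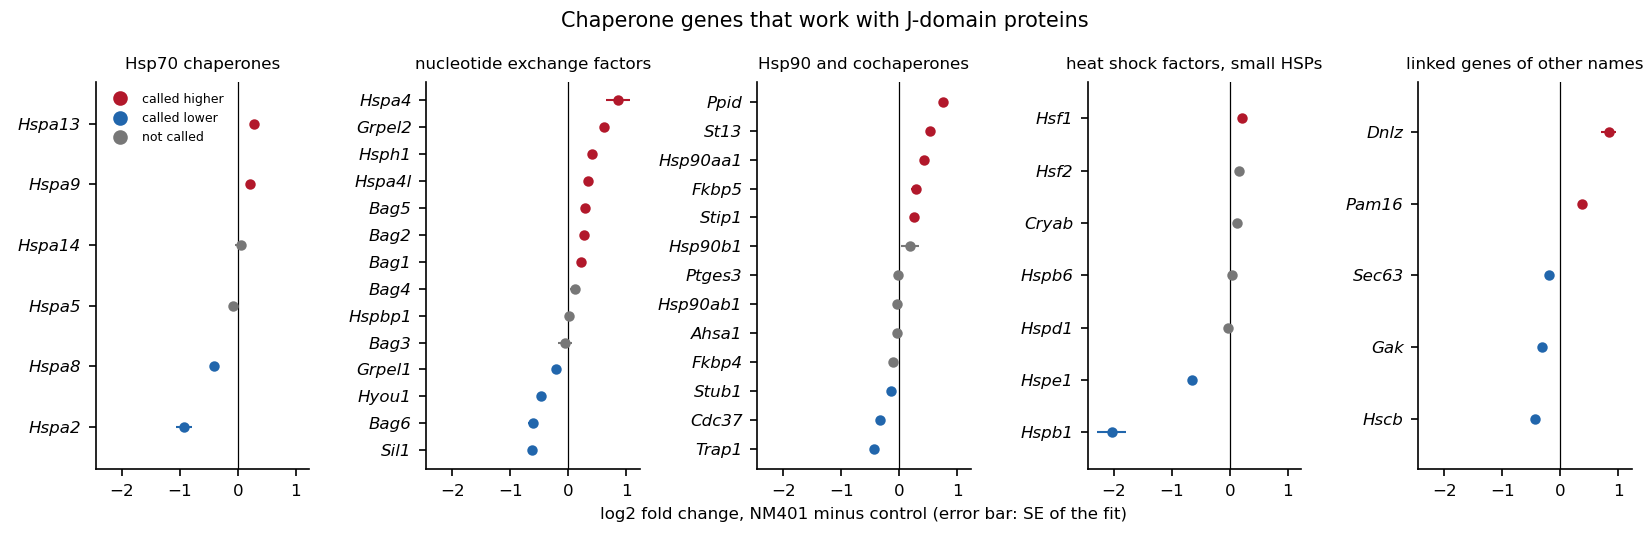
Log2 fold change, NM401 minus control, with the SE of the fit as a bar, for 45 partner genes in 5 lists on a common horizontal axis. Each list holds both red (called higher) and blue (called lower) genes; Hspb1 at −2.03 lies lowest and Hspa4 at 0.85 highest, which is 0.18 with the slide as a block.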

How the data were processed

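Total RNA of the 8 samples was labelled with Cy3 and hybridised to 1-colour Agilent rat arrays. Per the file headers the authors read the spot intensities with version 11.0.1.1 of Agilent's Feature Extraction program. The deposited files hold 62976 spots an array, each with its intensity; the processed signal (gProcessedSignal) used here is background-subtracted by that program. The table deposited for the whole series also holds intensities, equal to the median pixel value for 503808 of 503808 entries, so its values had to be scaled here. Probe positions are rn4, per the file headers. Symbols are those of the files; 50 of 56 member probes have an accession that carries the same symbol in RefSeq (GRCr8), and promoters come from RefSeq GRCr8.

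From these intensities log2 values were computed, minus each array's 75th percentile of the 58717 non-control spots. Spots marked as outliers were left out and a probe's other spots averaged; 47 probes, none of them a member, had no spot left on some array and were dropped. The 21684 probes that cleared background well on 4 or more of the 8 arrays were fitted with lmFit and eBayes (limma 3.58.1, R 4.3.3, with files read by version 1.17.8 of the data.table package), two-sided, with Benjamini-Hochberg adjustment over all of them; the scripts were tested on simulated data. The highest-signal tested probe stood for a gene. The 4 arrays a group limit the precision. The series' design text calls the replicates biological without saying what was separate, so p-values measure the spread between these samples.

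Members and lists were chosen with earlier results of these data known. Values on every array are given for up to 4 genes in each direction and stem with the largest called change and no overlap, for the stress-linked members Dnaja1, Dnajb1, Dnajb4, Dnajb9, Dnajb11, Dnajc3 and Dnajc10, and for probes that differ, which were picked after their values were seen. In each partner list up to 4 genes with the smallest p were named, with others added after their values were seen; the others are covered by counts, and 1 gene taken off a list is not reported here. Alternatives were normexp (offset 50), quantile and median scaling, other filters, the mean of probes, the deposited series values, the slide, the replicate number, and leaving out each array.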

Additional observations from a re-analysis of the deposited data

Results flagged for a closer look

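In 3 of 76 groups of 4 arrays, 1 per member and condition, a single array stood apart from the other 3 of its group. Chance marks about 1 in 20 groups in this way. For Dnajb11 it was control replicate 2 at 1.36, with the others between 1.14 and 1.18. For Dnajb6 it was control replicate 4 at −0.35, with the others between −0.21 and −0.18. For Dnajc8 it was NM401 replicate 1, the NM401 array on slide 1, at 2.92, with the others between 2.72 and 2.75.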

How the results depend on the processing

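Of the counts, Dnaja gave 3 higher and 0 lower in all leave-one-out fits. Over those fits all members gave 16 to 17 higher and 4 to 5 lower. Dnajb gave 3 to 4 higher and 2 lower, Dnajc 10 to 11 higher and 2 to 3 lower. Partners gave 15 to 17 higher and 11 to 14 lower. In the same fits 18.8% to 21.2% of all genes were higher and 31% to 35.2% lower. Deviations of same-numbered replicates correlated at −0.06 to 0.19, and 1 of 4 pairs matched best with its own number. NM401 replicates 2 to 4 lay on another slide than the controls, so whether the numbers mark paired samples cannot be told from this. With the replicate number as a block, 19 members were higher and 4 lower, against 20.3% and 33.5% of all genes. Dnajb1 (limma adjusted p = 0.0486) and Dnajc30 (limma adjusted p = 0.0357) were added. Members called lower were 10 after normexp (Dnajb 4, Dnajc 6; 53.9% of all genes, 35.4% in the reported fit), 9 in the deposited series values (Dnajb 4, Dnajc 5; 48.4%), 1 under median scaling (Dnajb 1, Dnajc 0, partners 8), and 2 with the slide as a block (Dnajb 1, Dnajc 1, with 7 Dnajc and 11 partners higher). Dnajc genes called lower were 1 after quantile normalisation (27.9% of all genes) and 4 with no filter (21.4% of all genes). Within slide 1, where 1 NM401 array is assumed to vary like the controls, 6 members were higher and 1 lower (Dnajb 0 and 1, Dnajc 4 and 0, partners 3 and 4), against 755 and 1361 of all genes. Among genes called in the reported fit or in the alternative, direction turned after normexp for Dnajb5 (−0.53), Dnajc18 (−0.43), Dnajc28 (−0.11), Dnajc30 (−0.21), Hsph1 (−0.035) and Bag4 (−0.28), and in the deposited series values for Dnajb5 (−0.43), Dnajc18 (−0.35), Dnajc28 (−0.0253), Hsph1 (−0.0017) and Bag4 (−0.24). It turned after quantile normalisation for Hsp90ab1 (0.30) and Stub1 (0.0235), under median scaling for Sec63 (2e-04) and Stub1 (0.0695), and with the mean of probes for Dnajc4 (−0.33) and Hspd1 (0.15). The cause was not tested. Signal over background limits the 7 members that could not be tested.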
